A study of Mus musculus with 10 samples.

Results

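Binding of RBPJ was examined at 10 chemokine and cytokine genes that mural cells, the pericytes and smooth muscle cells of vessel walls, can express: Ccl2, Ccl7, Ccl8, Ccl11, Ccl12, Cxcl1, Cxcl12, Il6, Lif and Csf1. The genes were chosen by name out of 21938 protein-coding genes. A peak was counted for a gene when its centre lay in the gene body or in the regulatory domain of the gene, which runs from 5 kb upstream to 1 kb downstream of the gene start (the 5′ end of the gene model) and is extended to the neighbouring domains by at most 1 Mb. This rule gave 16 peaks of 11094, or 0.144%. The peaks came from chromatin immunoprecipitation and sequencing (ChIP-seq) of untreated mouse RD1 cells, labelled as brain pericytes and grown in culture on collagen I. Input chromatin, histone H3, its marks H3K4me1 and H3K4me3, and RBPJ were each sampled in 2 replicates of these cells, 10 samples in all, and the files of the 2 RBPJ samples were analysed here. These 2 files were identical and give only the start and end of each peak, so they are 1 list with no height and no spread between replicates. Reads were not analysed here and the depth behind a peak is unknown. Peaks do not measure expression, so neither the cell type label nor the activity of these genes could be checked.

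RBPJ is the DNA-binding factor of the Notch pathway. It recruits corepressors to its target sites in the absence of Notch signalling and becomes part of an activating complex when the cleaved Notch receptor enters the nucleus. Chemokines are small secreted proteins that guide leukocytes, and genes such as Ccl2, Cxcl1 and Il6 are induced in inflamed vessels through NF-κB, AP-1 and C/EBP factors. The human IL6 promoter is known for a site at which recognition by RBPJ and by NF-κB overlaps.

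The sequences on which the description rests are given first (GRCm38.p6, 5′ to 3′). The whole Ccl2 peak (chr11:82032089-82032373, plus strand) is shown because a single RBPJ core motif, TGGGAA, lies 3 bp from its centre on the minus strand, and the capitals mark it as TTCCCA. The first 300 bases of the first peak in an intron of Lif (chr11:4264039-4264338, plus strand) are shown with the capitals on its only TGGGAA.
Ccl2 peak: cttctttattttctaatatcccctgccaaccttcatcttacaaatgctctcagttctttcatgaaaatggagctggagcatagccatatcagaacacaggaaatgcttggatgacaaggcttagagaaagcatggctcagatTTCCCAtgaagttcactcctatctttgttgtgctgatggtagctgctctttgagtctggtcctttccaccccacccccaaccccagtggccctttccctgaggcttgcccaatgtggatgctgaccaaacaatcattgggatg
Lif intronic peak: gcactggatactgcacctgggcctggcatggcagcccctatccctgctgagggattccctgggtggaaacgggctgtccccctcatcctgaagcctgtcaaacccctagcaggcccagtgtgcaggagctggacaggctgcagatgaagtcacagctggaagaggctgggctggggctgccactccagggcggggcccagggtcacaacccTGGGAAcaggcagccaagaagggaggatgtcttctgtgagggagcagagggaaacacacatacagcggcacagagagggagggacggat

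Promoters were taken from RefSeq, from 250 bases before to 50 after the start, and 7 of the 10 genes matched an entry, which left Ccl2, Ccl7 and Ccl11. The Cxcl1 promoter (chr5:90890995-90891294, plus strand) lay wholly within a peak, and its capitals mark matches to the NF-κB motif, which is GGG followed by any 3 bases and TTCC on either strand. In the Il6 promoter (chr5:30012864-30013163, plus strand), which ended short of the nearest peak, the capitals mark TGGGAT and, behind it, the reverse complement of TGGGAA.
Cxcl1 promoter: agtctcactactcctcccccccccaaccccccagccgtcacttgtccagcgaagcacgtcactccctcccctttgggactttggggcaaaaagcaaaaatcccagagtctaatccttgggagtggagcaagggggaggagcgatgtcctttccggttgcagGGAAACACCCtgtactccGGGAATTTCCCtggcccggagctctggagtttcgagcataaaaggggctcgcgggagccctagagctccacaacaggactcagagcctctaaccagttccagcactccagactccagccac
Il6 promoter: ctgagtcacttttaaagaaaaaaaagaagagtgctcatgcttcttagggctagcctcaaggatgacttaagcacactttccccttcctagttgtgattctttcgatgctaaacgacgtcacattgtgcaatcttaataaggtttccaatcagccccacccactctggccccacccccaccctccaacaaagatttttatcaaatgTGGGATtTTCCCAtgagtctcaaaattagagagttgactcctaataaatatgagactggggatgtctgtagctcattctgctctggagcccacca

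Of the 10 genes, 6 had at least 1 peak, where 46.7% of all protein-coding genes did. These were Ccl2, Cxcl1, Cxcl12, Il6, Lif and Csf1, and the genes without a peak were Ccl7, Ccl8, Ccl11 and Ccl12. None of the 10 genes lies on chromosomes 4, 7, X and Y, where peaks are sparse. Without these chromosomes the share of all genes with a peak was 55.3%. The other shares of all genes given here and below include them. A peak centred in the basal domain, which is the part from 5 kb upstream to 1 kb downstream, was found at Ccl2, Cxcl1, Il6 and Csf1. This is 4 of 10 genes, against 27.1% of all genes, and the same 4 had a peak centred within 5 kb of the start, against 30.1%. The peaks of Cxcl1, Il6 and Csf1 were centred within 1 kb of the start, where 24.9% of all genes had one. A peak centred in the gene body was found for Il6, Lif and Csf1, against 25.2% of all genes. At least 2 peaks were counted for 4 of the 10 genes and for 18.4% of all genes. Csf1 had 5 peaks and Lif had 4, numbers reached or exceeded by 2.19% and 4.05% of all genes, respectively. Cxcl12 had 3, Cxcl1 had 2, and Ccl2 and Il6 had 1 each. The median was 1 peak per gene for the 10 genes and 0 for all genes. The domains were also longer, with a median of 137 kb against 89.5 kb. From the density of peaks on their chromosomes, the 10 domains taken one by one would hold 12.2 peaks in sum. The count was above this density for Csf1 (5 against 0.661), Lif (4 against 1.55), Cxcl1 (2 against 0.614) and Ccl2 (1 against 0.491), and below it for Cxcl12 (3 against 4.51) and Il6 (1 against 1.97). The list was set with earlier results of these data known, so these counts are a description and no test was made.

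**Figure D1:**
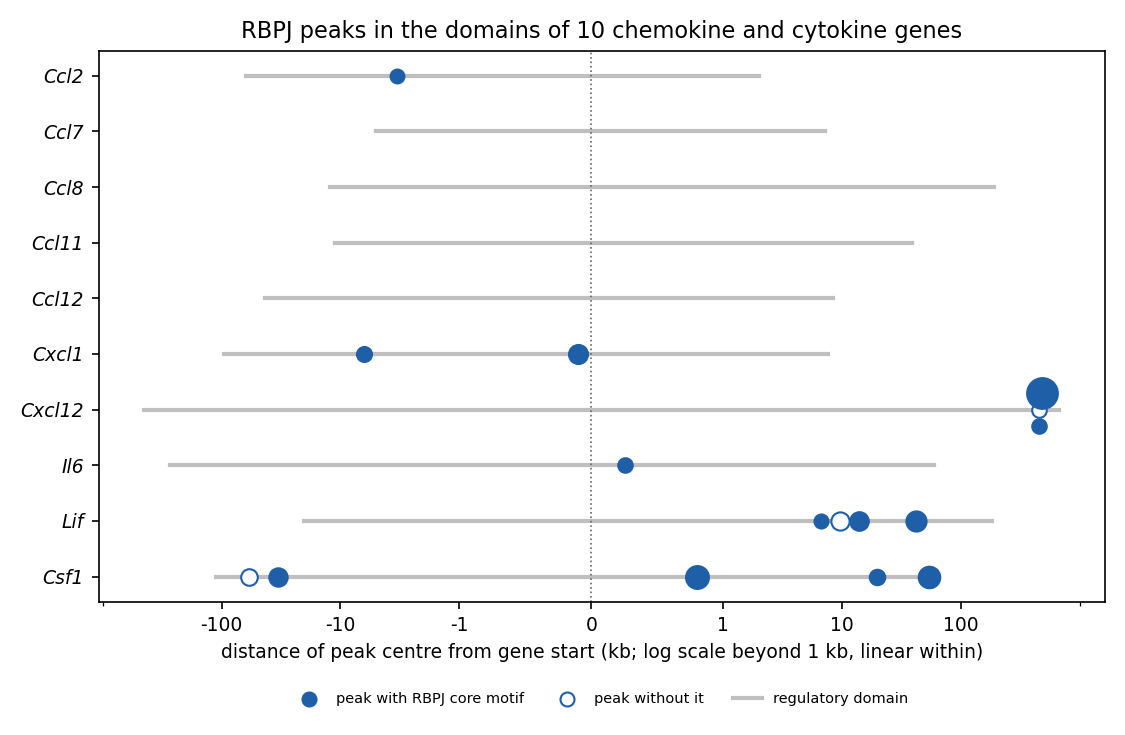
Distance of each RBPJ peak centre from the start of its gene in kb (linear within 1 kb, logarithmic beyond, negative values upstream) for the 10 genes; the grey line is the regulatory domain, the area of a point grows with peak width, filled points hold TGGGAA and open points do not, and the Cxcl12 points are set apart vertically for legibility. Peaks are seen at 6 of the 10 genes, and 3 of the 16 points are open.

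**Figure D2:**
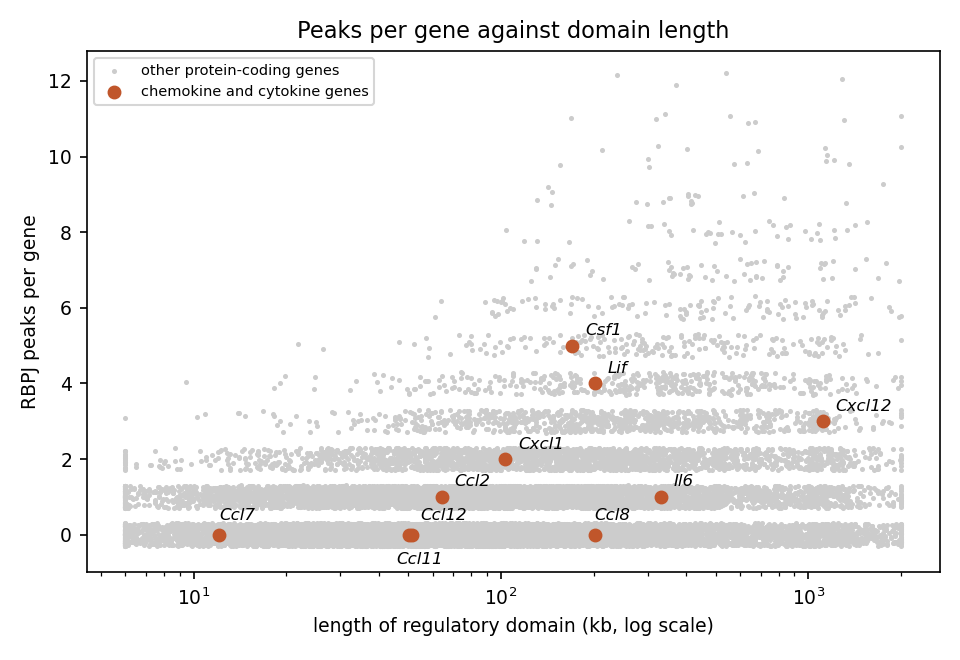
Number of RBPJ peaks per gene against the length of its domain in kb (log scale), with the 10 genes in orange and all other protein-coding genes in grey, spread vertically at random around whole numbers; 15 genes with more than 12 peaks are not drawn. Csf1, with 5 peaks in 171 kb, lies higher than Cxcl12, with 3 peaks in 1114 kb.

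Among the 5 CC chemokines, which attract monocytes, eosinophils and other leukocytes and lie side by side on chromosome 11, RBPJ occupied a single site. Ccl2 encodes the main attractant of monocytes. Its peak spanned 285 bp, was centred 3340 bp upstream of the start of Ccl2 (chr11:82035571-82037453) and fell in an intron of Gm17268, a protein-coding gene model for which it was also counted, through the gene body and not the regulatory domain. It was narrower than most, at the 14th percentile of width, and held 0 CpG dinucleotides. It was also remote from other peaks. The nearest neighbours were 1222 kb before and 839 kb after it, whereas neighbouring peaks were a median of 68.5 kb apart. Only 132 of all peaks, or 1.19%, had both neighbours at least 839 kb away, a comparison chosen after the distances were seen.

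Ccl7 (chr11:82045712-82047525), Ccl11 (chr11:82057823-82062955), Ccl12 (chr11:82101845-82103400) and Ccl8 (chr11:82115185-82116799), which attract monocytes and, for Ccl11, eosinophils, had no peak in domains of 12.1, 50.1, 51.4 and 202 kb. Chromosome-wide density would give 0.0928, 0.384, 0.394 and 1.55 peaks for these lengths, so that an empty domain carries little information. This density is a mean over the chromosome, and peaks around Ccl2 were far apart. The Ccl2 peak was the nearest for every one of them, at 13.5 kb from the start of Ccl7, 25.6 kb from Ccl11, 69.6 kb from Ccl12 and 83.0 kb from Ccl8. Their domains begin downstream of Ccl2, so that under the rule a peak upstream of Ccl2 could not be counted for any of them. The 5 domains spanned 331 kb, for which density gives 2.54 peaks. A TGGGAA without a peak was present in the Ccl8 promoter, with its first base 73 bp before the start.

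**Figure D3:**
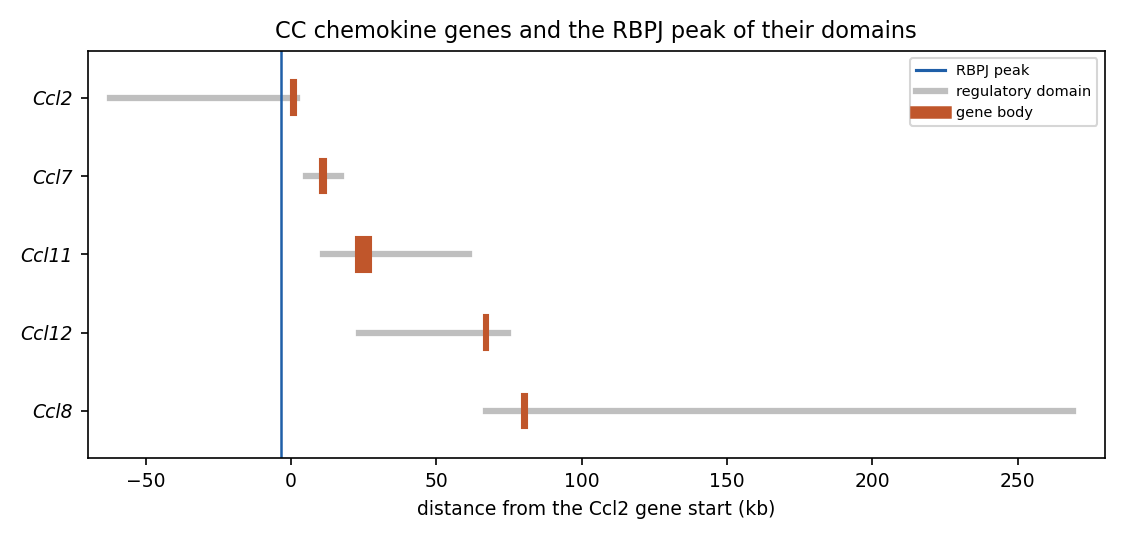
The 5 CC chemokine genes along chromosome 11, as distance from the Ccl2 start in kb; orange boxes are gene bodies, grey lines regulatory domains and the vertical blue line the only RBPJ peak in them. The line crosses the domain of Ccl2 and none of the other 4.

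The CXC chemokines Cxcl1, which attracts neutrophils, and Cxcl12, which retains blood progenitors and guides migrating cells, differed in where RBPJ was found. At Cxcl1 (chr5:90891241-90893115) a peak of 1070 bp (chr5:90890610-90891679) covered the gene start and was centred 97 bp upstream of it. A second peak of 438 bp (chr5:90884664-90885101), centred 6359 bp upstream, was shared with the domain of Cxcl15. At Cxcl12 (chr6:117168535-117181367) no peak was found in the gene or near its start. All 3 of its peaks were downstream, centred at 448706, 451230 and 482895 bp (chr6:117617055-117617428, chr6:117619573-117619957 and chr6:117649552-117653309). They clustered within 36.3 kb and were closer to the start of Zfp637, at 189750 to 223939 bp, whose domain held them too. The widest of the 16 peaks, with 3758 bp, was among them. It held 6 TGGGAA sites, a number reached by 3.23% of all peaks, and was at the 96.6th percentile of width, so that this number is not corrected for its length. With an extension of at most 100 kb, Cxcl12 had no peak, and 5 of the 10 genes (43.3% of all genes) and 13 peaks were left.

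Among the cytokines, Il6, the inducer of the acute phase response, had a peak of 370 bp (chr5:30013184-30013553) that started 70 bp and ended 439 bp downstream of the start of the gene (chr5:30013114-30019981). Its centre lay 254 bp downstream, in the 5′ untranslated region of an alternative Il6 transcript that starts 47 bp before it. The interval held 1 TGGGAA, 169 bp from the centre. It did not reach the sequence TGGGATTTTCCCA in the promoter, where an NF-κB match overlaps both TGGGAT and a reverse TGGGAA. This sequence (chr5:30013069-30013081) began 45 bp before the start, and 102 bp separated it from the peak. It was singled out after it was seen. On either strand it occurred in 3 of 32851 RefSeq promoters (0.00913%), those of Il6 and 2 of the predicted gene Gm30011.

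Lif, a cytokine of the Il6 family, had 3 peaks inside its gene body and 1 behind it, and none at the start of the gene model (chr11:4257557-4272514). At least 3 peaks centred in the gene body were found in 1.39% of all genes. The peak of 307 bp in an intron was centred 6635 bp downstream of the start. The following one, of 931 bp (chr11:4266592-4267522), was centred 9500 bp downstream, but only 38 bp before an internal start of a Lif transcript (chr11:4267095). It held 70 CpG dinucleotides, 0.734 times the number given by its base composition, the highest ratio of the 16 peaks, and no TGGGAA. Another peak, of 1000 bp (chr11:4270988-4271987), was centred in the 3′ untranslated region at 13930 bp. The last, of 1271 bp (chr11:4298826-4300096), lay outside protein-coding genes at 41904 bp. All 4 were shared with the domain of Hormad2.

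Csf1, the growth and survival factor of macrophages and microglia, had the most peaks of the 10 genes, on both sides of its start (chr3:107741048-107760469, minus strand). A peak of 1812 bp (chr3:107758765-107760576) covered the start and reached to 1704 bp downstream of it, with its centre in an intron. A peak of 500 bp (chr3:107740552-107741051) lay at the opposite end, and its centre was just beyond the end of the gene, 19668 bp downstream of the start. Here a TGGGAA was found 10 bp from the centre. The other 3 peaks lay outside protein-coding genes. They were centred 33223 bp upstream (chr3:107793213-107794172), 53701 bp downstream (chr3:107706000-107707537) and 58786 bp upstream (chr3:107818923-107819588). The peaks on the downstream side were also in the domain of Ahcyl1, apart from the one at the start, and those upstream in the domain of Eps8l3.

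**Figure D4:**
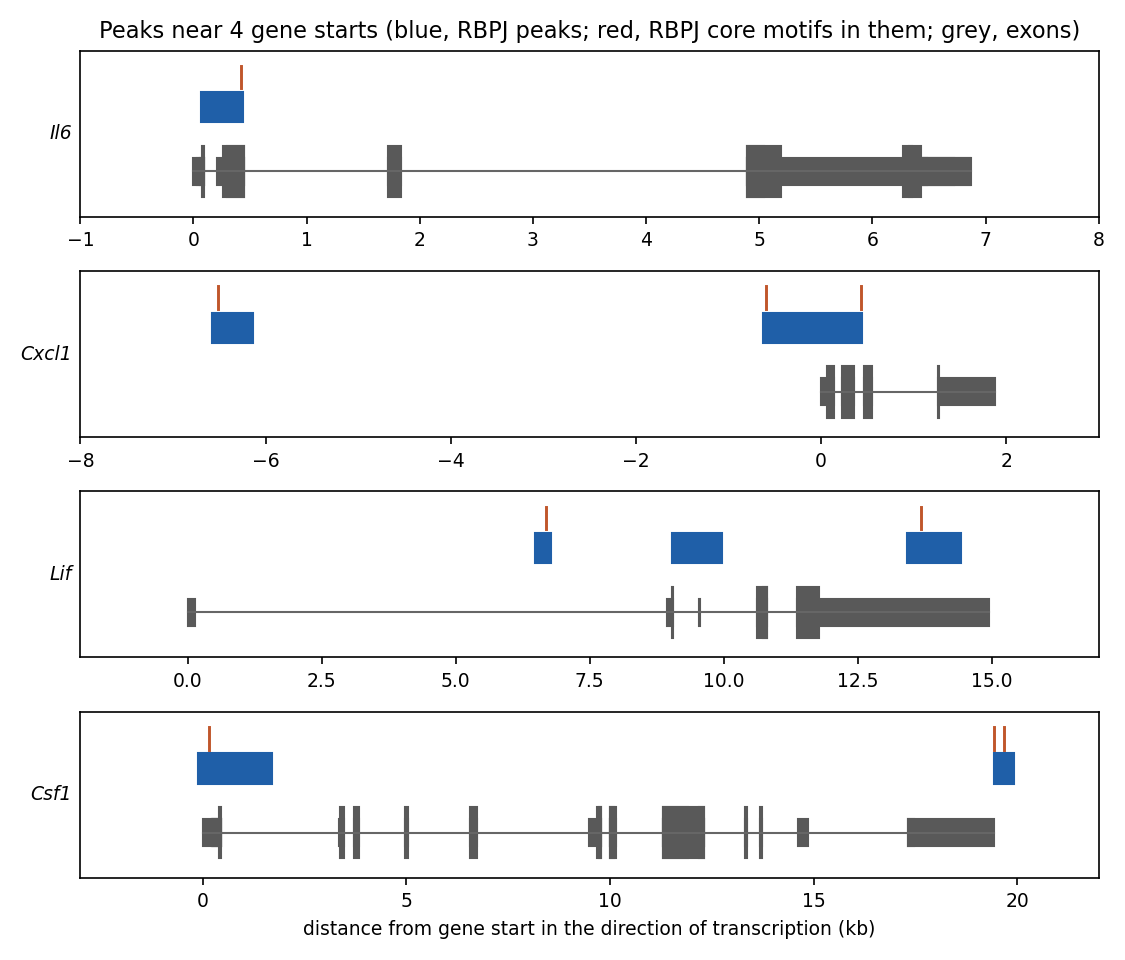
Peaks around Il6, Cxcl1, Lif and Csf1 as distance from the gene start in kb, in the direction of transcription; grey boxes are exons (taller where coding), blue boxes RBPJ peaks and red lines TGGGAA sites within peaks. Peaks cover the start of Cxcl1 and Csf1, begin 70 bp downstream of it at Il6, and at Lif 3 lie inside the gene. The Lif peak at 41904 bp and the 3 Csf1 peaks outside protein-coding genes at 33223 bp and beyond fall outside the windows drawn.

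The 16 peaks differed widely in width and CpG content. Widths ran from 285 to 3758 bp with a median of 798.5 bp, against 690 bp for all peaks. A centre within 1 kb of a protein-coding transcript start was found for 4 peaks, those at Cxcl1, Il6, Csf1 and the internal start of Lif, where 49.5% of all peaks were so placed. Relative to base composition, CpG dinucleotides were at 0.456 in the Cxcl1 start peak, 0.507 in that of Csf1 and 0.734 in that of Lif, and from 0 to 0.359 in the other 13. The median was 0.244 for the 16 peaks and 0.501 for all peaks. The median GC content was 51.6% and 55.8%, respectively.

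TGGGAA was present on either strand in 13 of the 16 peaks (81.2%, 95% exact binomial interval 54.4 to 96.0%), and in 64.9% of all peaks. The peaks without it were the one at the internal start of Lif, the Cxcl12 peak at 451230 bp and the Csf1 peak at 58786 bp upstream. Per kb there were 1.47 sites, against 1.25 for all peaks. In the central 200 bp the motif was found in 4 of 16 peaks (25%, 7.27 to 52.4%), against 25.8% of all peaks. These were the Ccl2 peak, the intronic Lif peak, the Cxcl12 peak at 448706 bp and the Csf1 peak behind the gene. In the 30 bp at the centre it was found in the Ccl2 and that Csf1 peak only, 2 of 16 against 5.09% of all peaks. The site of each of these not yet shown is given here in 30 bases with TGGGAA in capitals (chr6:117617186-117617215, plus strand, and chr3:107740776-107740805, minus strand), beside the sites of the peaks at the starts of Il6 (chr5:30013522-30013551, plus strand) and Csf1 (chr3:107760289-107760318, plus strand).
Cxcl12 at 448706 bp: agagatttatcaTGGGAAtgagcatgtaag
Csf1 at 19668 bp: cccagcccagccTGGGAAaatggctggttg
Il6 at 254 bp: acacatgttctcTGGGAAatcgtggaaatg
Csf1 at 799 bp: gcatgtggtttaTGGGAAatcaccctggct

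The longer form GTGGGAA, in which TGGGAA follows a G, was found in 5 of 16 peaks (29.3% of all peaks) and in 0 of the 16 central windows of 200 bp (9.28% of all). The interval for 0 of 16 reaches 20.6%, and neighbouring peaks of a gene are not independent, so nothing is read from it. TGAGAA, a related form, was found in 5 peaks (45.3% of all) and in 2 central windows (14.4% of all). TGGGAT was found in 7 peaks (36.6% of all) and in 3 central windows (9.91% of all), those of the Cxcl1 start, the widest Cxcl12 peak and the 3′ untranslated region of Lif. No pair of TGGGAA or TGAGAA sites facing each other across 30 bp or less was present in these peaks.

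Motifs of the factors that induce these genes were searched in the same way on both strands. The AP-1 motif TGANTCA was found in 8 of the 16 peaks (30.7% of all), including 4 of the 5 Csf1 peaks and all 3 of Cxcl12. It was in 3 central windows (10.4% of all), in a pair of Cxcl12 peaks and the Lif peak at 41904 bp. The NF-κB motif was found in 4 (16.9% of all), namely the Cxcl1 start peak, the Cxcl12 peaks at 451230 and 482895 bp and the Csf1 peak at 33223 bp upstream. In central windows it was found in 3 of 16 (4.05 to 45.6%), against 3.50% of all peaks. These were the Cxcl1 start peak, the Cxcl12 peak at 451230 bp and that Csf1 peak. In the central 100 bp it was found in 1 of 16 (0.158 to 30.2%), against 1.6% of all peaks. These are 2 of 24 pairs of shares computed, over 8 motifs and 3 windows, and neighbouring peaks of a gene are not independent, so nothing is read from a single interval. TTGCNNAA, for C/EBP factors, was in 4 peaks (28.9% of all) and 1 central window (7.66% of all). TTCNNNGAA, for STAT factors, was in the upstream peak of Cxcl1 alone (23.2% of all), in its central window (5.54% of all). Over whole peaks the exact binomial intervals were wide, from 24.7 to 75.3% for AP-1 and from 7.27 to 52.4% for NF-κB, and they included the share of all peaks for each of these 4 motifs.

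**Figure D5:**
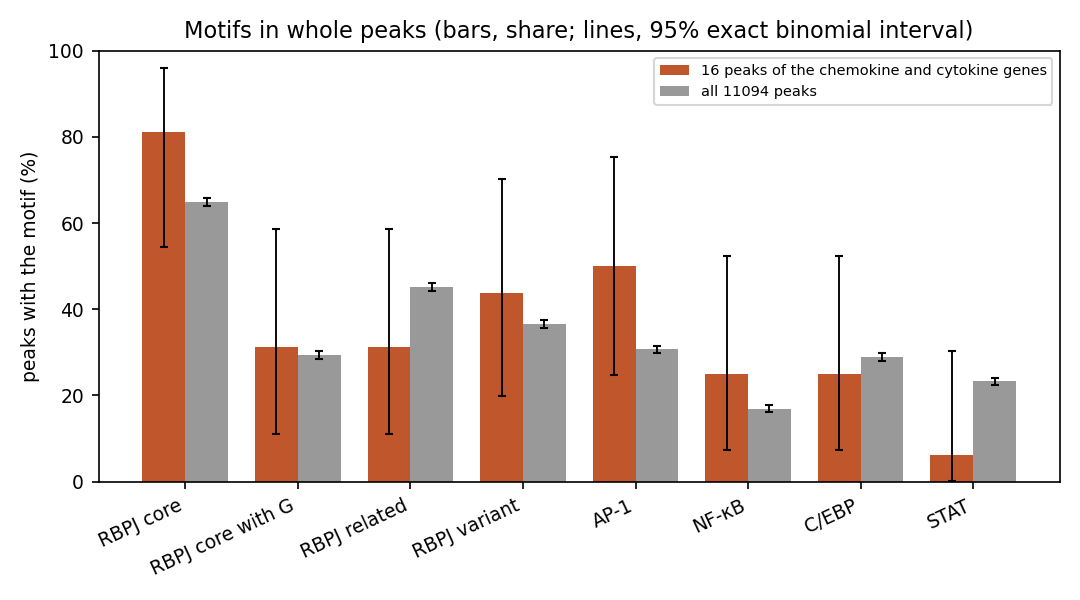
Share of peaks (%) that hold each motif anywhere in the peak, for the 16 peaks of the 10 genes (orange) and all 11094 peaks (grey); lines are 95% exact binomial intervals, and the RBPJ core, its form with a leading G, the related and the variant form are followed by AP-1, NF-κB, C/EBP and STAT. The intervals of the orange bars are wide and include the grey share for all 8 motifs.

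The RBPJ and NF-κB motifs can overlap. NF-κB matches that share bases were counted as 1 place, and the 16 peaks held 7 such places, of which 2 overlapped a TGGGAA. In all peaks this was so for 282 of 2305 places, or 12.2%, and 2.45% of all peaks had such a place, as did 0.545% of all promoters. The overlaps lay at the upstream edge of the Cxcl1 start peak (chr5:90890634-90890660) and in the wide Cxcl12 peak (chr6:117649911-117649936). They are shown on the plus strand beside the Il6 promoter site outside the peak (chr5:30013061-30013089), with the bases of either motif in capitals.
Cxcl1 overlap: ggactttcGGGAAGTTCCCAagctcaa
Cxcl12 overlap: ccatcattGGAATTTCCCAcaaacca
Il6 promoter overlap: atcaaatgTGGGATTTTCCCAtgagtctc

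In the promoters, TGGGAA was present for Ccl8, Cxcl12, Il6 and Lif, 4 of the 7 genes with an entry, against 25.6% of all promoters, and none of these 4 promoters was overlapped by a peak. The promoters that a peak did overlap, those of Cxcl1 (300 bp) and Csf1 (157 bp), held no TGGGAA. The overlapping peaks themselves held it outside these windows, with 2 sites at Cxcl1 and 1 at Csf1. The Lif site was also the only GTGGGAA (6.38% of all promoters). The NF-κB motif was present in the promoters of Cxcl1, Il6 and Csf1 (5.56% of all promoters), within a peak only at Cxcl1. At Cxcl1 its matches began 89, 71 and 70 bp before the RefSeq start, the last 2 on opposite strands of overlapping bases. TGGGAT was present at Cxcl1 and Il6 (14.7% of all), the AP-1 motif at Il6 and Lif (7.81% of all) and the C/EBP motif at Il6 (10.8% of all). TGAGAA (20.2% of all) and the STAT motif (8.30% of all) were in none of the 7 promoters. These are letters in a window of 300 bp and do not show occupancy.

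Related genes were counted by the same rule. Of 13 other CC chemokines, 3 had a peak (23.1%, against 46.7% of all genes) and 0 had one in the basal domain (27.1% of all). Their domains had a median of 59.0 kb, shorter than the 89.5 kb of all genes. Of 14 other CXC, CX3C and XC chemokines, 4 had a peak (28.6%, against 46.7% of all genes) and 2 a basal one (27.1% of all), and Cxcl11 was not among the gene models used. Among the 4 was Cxcl15, through the upstream peak of Cxcl1 alone. The median domain of the group was 65.9 kb. In this group Cxcl13, which attracts B cells, had a peak of 578 bp centred 124 bp downstream of its start, and Cx3cl1, the ligand that microglia sense, had one of 313 bp centred 65 bp downstream. Cxcl2 and Cxcl3, neighbours and relatives of Cxcl1, had none in domains of 33.9 and 16.1 kb.

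Of 11 other cytokines of the Il6 family, colony-stimulating factors and inflammatory cytokines, 5 had a peak (45.5%, against 46.7% of all genes) and 2 a basal one (27.1% of all). Their domains had a median of 44.9 kb. Clcf1, a ligand of the Il6 family, had a peak of 3033 bp centred 854 bp downstream of its start, and Il34, the other ligand of the Csf1 receptor, one of 1811 bp centred 3501 bp upstream. Osm, the neighbour of Lif, had none in 33.3 kb. Of 13 receptors of the 10 genes, 7 had a peak (53.8%, against 46.7% of all genes), with a median domain of 130 kb. Among them, the Csf1 receptor gene Csf1r was counted through a single interval of 185896 bp that covered its start. The centre of this interval lay 51712 bp upstream of the start, and such a length does not locate binding at the gene. A basal peak was found for 4 of the 13, against 27.1% of all genes. These included Il6st, the signal-transducing subunit shared by Il6 and Lif, with its centre 41 bp downstream of the start, and Il6ra, the Il6 receptor, with 223 bp downstream. The same was true of Ackr3, an atypical receptor of Cxcl12, at 133 bp upstream, and Cxcr2, the receptor of Cxcl1, at 3656 bp upstream. Cxcr4, the signalling receptor of Cxcl12, had no peak in 846 kb, and neither did Ccr2, the receptor of Ccl2, in 93.6 kb.

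Among 15 regulators of cytokine genes, 12 had a peak (80.0%, against 46.7% of all genes) and 10 a basal one (27.1% of all genes). Their domains were long (median 175 kb, all genes 89.5 kb). Basal peaks nearest to the start were those of Rel (46 bp downstream), an NF-κB subunit, Nfkbiz (87 bp downstream), a nuclear cofactor of NF-κB, and Rela (131 bp upstream), another subunit. They were followed by Tnfaip3 (136 bp downstream), a negative regulator of NF-κB, Cebpd (142 bp upstream), a C/EBP factor, and Stat3 (147 bp upstream), the factor activated by Il6 and Lif. Relb, Zfp36 and Zc3h12a had no peak and lie on chromosomes 4 or 7, where peaks are sparse. On chromosomes 4, 7, X and Y together 13.3% of genes had a peak. Of the other lists, CC chemokines had 1 gene there, CXC, CX3C and XC chemokines 1 and cytokines 2, all without a peak. None of the 10 chemokine and cytokine genes lies on these chromosomes.

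A minimum width of 500 bp removed the only peaks of Ccl2 and Il6, which left 4 genes and 10 peaks, where 34.9% of all genes kept a peak. The list has no heights, so these narrow sites could not be ranked against the others, and the 4 genes with no peak may still have binding below the threshold of the callers.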

How the data were processed

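RBPJ was profiled by ChIP-seq in RD1 cells. Reads were aligned by the authors to GRCm38 with bowtie and duplicates were discarded. Each replicate was searched for peaks by PeakRanger and by MACS2. Calls closer than 2 kb were joined, a region needed 3 or more overlapping calls, and ENCODE blacklisted regions were left out. The deposited files hold this consensus list as positions, with other columns absent. Merging can shift the centre of a wide peak away from the bound site, and the number of peaks counted for a gene depends on the joining distance. Reads with more than 3 matching positions were dropped, which can hide sites in duplicated sequence.

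Positions were read as counted from 1. The reference was GRCm38.p6 with protein-coding genes of GENCODE release M21, and 0 peaks ran past a chromosome end. Domains followed the GREAT rule. The expected number of peaks was the domain length times the peaks per determined base of the chromosome. Motifs were searched on both strands. Promoter sequences were those of RefSeq on GRCm38.p6. The scripts for domains and motifs were tested on simulated data. The software was pandas 2.3.3, numpy 2.4.6, scipy 1.17.1 and matplotlib 3.10.9 under Python 3.11.15, with 95% exact (Clopper-Pearson) intervals, which cover counting error only.

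The genes, lists and motifs were chosen with earlier results of these data known, and apart from the exact intervals of motif shares no test was run. Named genes were the 10 members, their neighbours in shared domains and, of each related list, up to 6 genes with a basal peak. Gm30011, Cxcl2, Cxcl3, Osm, Cxcr4, Ccr2, Csf1r, Relb, Zfp36 and Zc3h12a were named after their values were seen. The other 8 samples were not analysed here. Alternatives varied the domain, the overlap, the peak width, the gene start, the motif and its window.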

Additional observations from a re-analysis of the deposited data

How the results depend on the processing

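Of 43 alternative values for 8 results, 30 stayed within 1.5 times of the value reported. Basal domains alone left 4 peaks at the 10 genes and 27.1% of all genes with a peak, and a minimum width of 500 bp left 10 peaks, by construction. TGGGAA in the central 200 bp (25% of the 16 peaks, 25.8% of all) moved to 81.2 and 64.9% in whole peaks, to 10 and 17.1% in peaks of at least 500 bp, and in all peaks to 15.4% in the central 100 bp. GTGGGAA gave 0 and 9.28%, and TGAGAA 12.5 and 14.4%. The median distance to the gene start fell from 16799 to 8149.5 bp when the nearest transcript start of the gene was used, mainly by construction. Without RBPJ replicate 1 or without RBPJ replicate 2 the values were the same, since the files are identical. A pair of alternatives was chosen after seeing the data. Domains from all transcript starts left 6 genes and 16 peaks, with 44.8% of all genes, and without chromosomes 4, 7, X and Y the share of all genes was 55.3%. No paired analysis was possible because both RBPJ files hold 1 list. Depth is unknown, so weak sites may be missing.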
